A study of Mus musculus with 371 samples.

Results

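The antiviral interferon-stimulated genes described here are 34 genes out of 23362 with a unique symbol in the expression table. They were taken by symbol from a list chosen with earlier results of these data known. All 34 were found in the table. They were followed in T cells taken one by one from B16F10 tumours grown in C57BL/6 mice. B16F10 is an established mouse melanoma line. Cells came from wild type mice (WT) or from mice labelled as knockout for Il27ra, called KO here by that label. Il27ra encodes the alpha chain of the receptor for the cytokine IL-27. Each genotype has a CD8 and a CD4 sort. Kept were the 350 cells with 1000 or more detected genes, where detected means a value of at least 1 FPKM, an abundance scaled for transcript length and library size. The CD8 sort kept 90 of 94 cells from WT and 86 of 90 from KO, and the CD4 sort 85 of 94 and 89 of 93. The titles carry the same genotype number and 1 name throughout a group, and nothing in the labels divides a group into animals, so each group was taken as 1 pool without a replicate. The titles also mark the CD8 sort p1 and the CD4 sort p2. Pool and genotype cannot be told apart, the cells of a pool are not replicates of a genotype, and no test between groups was made. The treatment protocol in the labels speaks of CD8+ cells for every sample, and the CD4 sort is named in the titles alone.

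Interferons bind receptors at the cell surface, whose Janus kinases activate transcription factors that move to the nucleus. Type I interferon acts through a complex with IRF9 that binds a DNA element called ISRE, and interferon-gamma acts mainly through an element called GAS. The genes switched on in this way restrict viruses: some sense or destroy foreign RNA, some block translation, and some hold virus particles at the membrane. IL-27 also signals through Janus kinases in T cells, and the genes are widely used in tumours as a reading of interferon exposure.

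The groups differed in depth, and 1 check of the labels could not be made. WT CD8 cells had a median of 2148 detected genes, KO CD8 cells 1955, WT CD4 cells 1661 and KO CD4 cells 1868. The T cell receptor gene Cd3e was found in 86% to 93.3% of cells in every group. Cd8a was present in 83.3% and 81.4% of WT and KO CD8 cells, and Cd4 in 87.1% and 87.6% of WT and KO CD4 cells. Cd4 had no positive cell among CD8 cells of either genotype (upper limits 3.33% in WT and 3.49% in KO), and Cd8a was present in 2.35% of WT and 1.12% of KO CD4 cells. Cd8b1, the other CD8 chain, was detected in 24.7% and 21.3% of WT and KO CD4 cells, and at 10 FPKM or above in 5.88% and 7.87%. Il27ra itself was found in 50.6% to 53.5% of cells in all 4 groups. A gene-level value does not show which exons its reads came from, so it cannot check the knockout. Cells with 2 or more markers of another cell type at 10 FPKM or above numbered 10 (WT) and 6 (KO) in the CD8 sort, and 9 in each CD4 group.

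Promoter windows are shown for 5 genes on which the comparisons turn: Bst2, the gene with the lowest CD8 difference, Isg15, Ifit3 and Oas1a as classic members, and Epsti1, the member with the highest CD8 difference. Each is the 250 bases before the annotated start (RefSeq, GRCm38.p6), read 5′ to 3′ on the strand of the gene. Capitals mark matches to the ISRE letters, which are GAAA, any 2 bases and GAAA, or TTTC, any 2 bases and TTTC when read from the other strand. Neighbouring matches may overlap, as in Bst2, Oas1a and Isg15.
Bst2 (chr8:71537473-71537722, minus strand): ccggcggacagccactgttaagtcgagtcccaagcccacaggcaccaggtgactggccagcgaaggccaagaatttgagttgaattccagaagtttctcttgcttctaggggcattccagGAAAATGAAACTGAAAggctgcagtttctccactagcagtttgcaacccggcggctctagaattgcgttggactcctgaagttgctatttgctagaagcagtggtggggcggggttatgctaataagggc
Isg15 (chr4:156200819-156201068, minus strand): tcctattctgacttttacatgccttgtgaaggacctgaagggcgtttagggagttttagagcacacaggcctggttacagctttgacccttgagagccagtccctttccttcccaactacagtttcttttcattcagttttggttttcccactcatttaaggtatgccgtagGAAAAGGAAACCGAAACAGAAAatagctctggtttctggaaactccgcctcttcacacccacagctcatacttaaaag
Ifit3 (chr19:34583279-34583528, plus strand): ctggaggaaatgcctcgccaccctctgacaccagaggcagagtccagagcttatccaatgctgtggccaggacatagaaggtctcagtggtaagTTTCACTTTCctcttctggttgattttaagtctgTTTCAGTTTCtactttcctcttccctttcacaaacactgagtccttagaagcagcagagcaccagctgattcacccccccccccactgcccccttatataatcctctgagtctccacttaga
Oas1a (chr5:120907526-120907775, minus strand): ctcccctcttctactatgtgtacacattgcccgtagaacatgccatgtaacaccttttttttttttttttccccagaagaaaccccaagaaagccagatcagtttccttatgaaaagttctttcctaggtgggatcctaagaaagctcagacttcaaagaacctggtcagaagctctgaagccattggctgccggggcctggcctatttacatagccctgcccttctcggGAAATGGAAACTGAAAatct
Epsti1 (chr14:77903989-77904238, plus strand): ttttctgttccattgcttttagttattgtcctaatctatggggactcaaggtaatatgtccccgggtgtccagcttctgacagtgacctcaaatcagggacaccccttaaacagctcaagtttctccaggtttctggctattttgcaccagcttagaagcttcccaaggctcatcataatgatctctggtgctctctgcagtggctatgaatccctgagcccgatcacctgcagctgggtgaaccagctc

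The reference table holds promoters of 25 of the 34 genes. ISRE letters occurred in the window of 12 of these 25 genes (48%), counted over 250 bases before to 50 after a start, against 3.99% of all 27025 genes in the table. The GAS letters TTCNNNGAA, which read the same on both strands, occurred in 7 of the 25 (28%), against 9.55% of all genes. In Isg15, 3 overlapping matches began 78, 72 and 66 bases before the start. Ifit3 held 2 separate matches, and Oas1a held 2 that began 20 and 14 bases before it. In the 300-base windows of Epsti1, Ifi47, Lgals3bp and Dtx3l neither set of letters was found, which says only that these letters are not there. A letter match describes the sequence and does not show binding. In the CD8 sort, all 7 measured members with ISRE letters had a lower mean in KO cells (median difference -0.52), as did 8 of the 9 without them (median -0.61). Both counts stand beside 78.7% of all measured genes with a lower mean and a median of -0.40. Bst2, Oas1a and Ifih1 of the 7, and Herc6 and Isg20 of the 9, counted as measured through WT cells alone. For these a lower share in KO followed from the filter, and no link of the letters to the difference was tested.

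Most of the 34 genes were found in a minority of cells, at high values where found. The heat map of every cell shows long dark stretches, a few columns at the right of each panel in which most genes are on, and a handful of genes that are on in many cells. Ifi47, an interferon-induced GTPase, was found in 66.7% of WT CD8 cells and ranged there from 0 to 1735 FPKM with a median of 219.4 over all cells. Epsti1, an interferon-response gene, was found in 62.2% of WT CD8 cells and ranged from 0 to 1539 FPKM with a median of 120.8. By contrast, Isg15, which encodes a ubiquitin-like protein conjugated to other proteins, was found in 6.98% to 16.7% of cells across the 4 groups. Rsad2, which encodes the antiviral enzyme viperin, was found in 3.37% to 8.24%, and Ifi44 in 0% to 2.25%. Oasl1, an oligoadenylate synthetase-like gene, was found in 5 of 90 WT CD8 cells and in 0 of 86 KO CD8 cells, which allows a share of up to 3.49%.

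**Figure D1:**
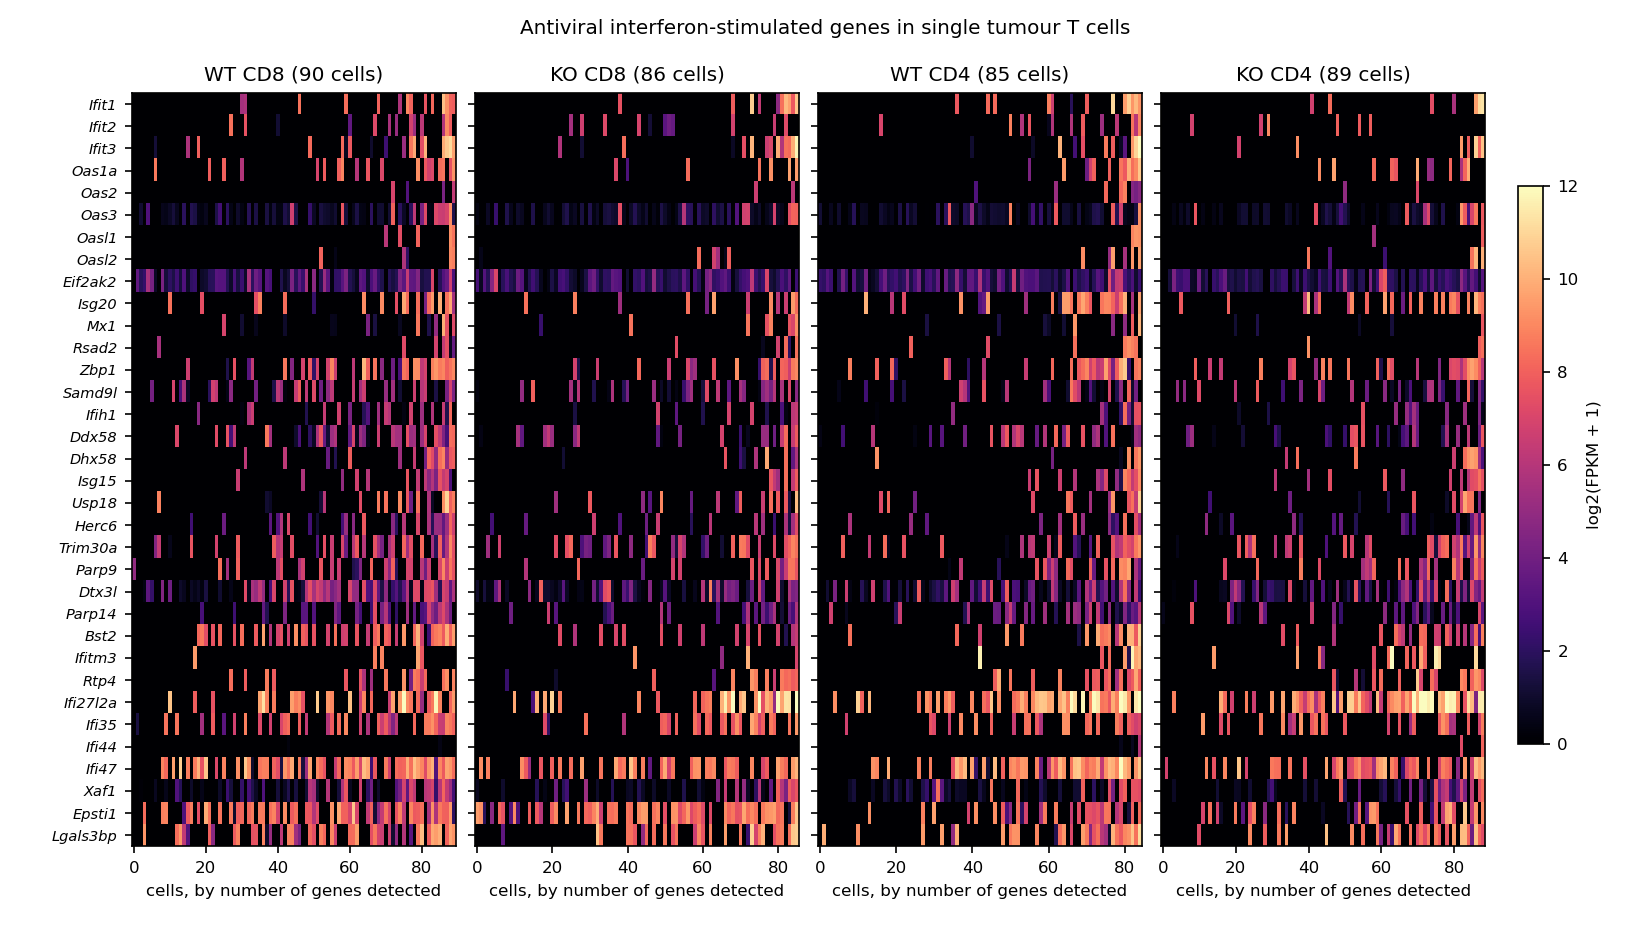
Log2(FPKM + 1) of the 34 genes (rows) in every kept cell (columns), in 4 panels for WT CD8, KO CD8, WT CD4 and KO CD4, with cells ordered by the number of the 34 genes detected. Most genes are dark in most cells, Eif2ak2 is dim in nearly all, and a few cells at the right of each panel have 20 or more genes on.

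Eif2ak2 and Oas3, and in CD4 cells also Xaf1 and Dtx3l, were often detected at low values. Eif2ak2 encodes PKR, a kinase that stops translation on double-stranded RNA. It was found in 80% to 90.6% of cells, with a median of 2.99 to 5.96 FPKM where found. Oas3, an oligoadenylate synthetase, was found in 27% to 44.4% of cells at medians of 1.99 to 3.82 FPKM where found. For such genes the share of cells depends on the threshold: at 10 FPKM, Eif2ak2 was present in 10.1% to 21.1% of cells. Without these 4 genes, an alternative chosen after seeing the data, the CD8 median difference was -0.61 and the CD4 median -0.14. Dtx3l and Parp9 overlap on opposite strands and Ifi47 overlaps Olfr56, so reads may be shared between them. Ifit3 and Oas1a have close paralogs, and their values are uncertain for that reason.

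In the CD8 sort, KO cells had lower means than WT cells for most of these genes, with Bst2 and Ifi47 lowest and Epsti1 highest. A gene counts as measured when it was detected in 20% or more of one group or the other. This kept 21 of the 34 genes, so genes found in few cells of both groups are not in the counts. Of the 21, 7 passed through WT alone (Bst2, Oas1a, Herc6, Rtp4, Parp9, Ifih1 and Isg20) and none through KO alone, against 29.9% and 2.48% of all measured genes, and a gene that passed through WT alone had a lower share in KO by the rule itself. Of the 14 that passed in both groups, 12 had lower means (85.7%), against 72.9% of all genes that passed in both. Of these 21, 19 had a lower mean of log2(FPKM + 1) in KO cells (90.5%, against 78.7% of all 4686 measured genes). The difference was at least 1 (log2) downward in 6 of 21, beside a background of 13.3% of all measured genes. The 6 were Bst2, Ifi47, Zbp1, Dtx3l, Lgals3bp and Ddx58. It was at least 1 upward in none, beside a background of 0.555%. The median difference was -0.53 over the 21 genes and -0.40 over all measured genes, and 15 of the 21 lay below the latter. KO CD8 cells had fewer genes detected. With cells weighted so that both groups had the same distribution of detected genes, the median was -0.36 over 19 measured members and -0.03 over all genes. Under that weighting, 2 of the 19 were lower by at least 1, beside 3.14% of all genes.

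Bst2 (mm10, chromosome 8, 71534255 to 71537456, minus strand) encodes tetherin, which holds budding virus particles at the cell membrane. In the CD8 sort, 40 of 90 WT cells had it (44.4%, with an exact 95% interval from 34% to 55.3%), as did 15 of 86 KO cells (17.4%, from 10.1% to 27.1%). These intervals do not overlap and cover counting error only. Bst2 passed the filter through WT alone and is shown as the member with the lowest difference, so a lower share in KO was set beforehand. Intervals that do not overlap were not counted over all measured genes, and nothing particular to Bst2 is read from them. WT CD8 cells ranged from 0 to 1085 FPKM with a mean of 136.5, and KO CD8 cells from 0 to 177.5 FPKM with a mean of 19.8. The median was 0 in both groups, and the 75th percentile was 200.3 FPKM in WT and 0 in KO cells. The difference of means was -2.34 (log2), of which -1.93 came from the share of cells and -0.41 from the level where found. With equal weights of detected genes it was -1.45. In the CD4 sort, Bst2 had shares of 20% in WT and 22.5% in KO cells, so WT CD8 cells stood above the other 3 groups. Bst2 is also a marker of plasmacytoid dendritic cells. Of the 7 markers on that list, which holds Bst2 itself, 4 were detected in each CD8 group, and the mean summed log2 level was 4.10 in WT and 1.97 in KO. Over the 6 markers other than Bst2 it was 0.63 and 0.83, and at least 1 of them was detected in 11.1% of WT CD8 and 10.5% of KO CD8 cells. Siglech and Cox6a2 were not detected in either CD8 group.

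Ifi47 had a share of 66.7% among WT CD8 cells (55.9% to 76.3%) against 46.5% in KO (35.7% to 57.6%). Its median over all cells was 219.4 FPKM in WT and 0 in KO cells, while the level where found was 427 and 407 FPKM at the median. Of the difference of -1.60, the share part was -1.69 and the level part 0.10. Ifi47 was lower in KO CD8 cells under all 15 alternatives tried, from -0.99 to -2.28. Zbp1, a sensor of nucleic acid in the Z form that can start necroptosis, ranged from 0 to 1170 FPKM in WT and from 0 to 594 FPKM in KO CD8 cells. It was found in 37.8% and 23.3% of them, a difference of -1.11. Without cells with 2 or more checkpoint receptor transcripts the Zbp1 difference was -0.23. Lgals3bp, which encodes a secreted galectin-binding glycoprotein, was found in 50% and 33.7%, a difference of -1.01, with means of 170.3 and 174.2 FPKM. Its difference was -0.27 with equal weights of detected genes and -0.20 among cells with 1500 to 2500 genes.

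By role, the genes that act on RNA or translation had 6 of 14 members measured in CD8 cells, all 6 with lower means in KO cells (median -0.51). Besides Zbp1 the 6 were Oas1a, Isg20 (-0.61), Samd9l (-0.40), Eif2ak2 (-0.22) and Oas3 (-0.15). The counts by role stand beside the 78.7% of all measured genes that had lower means in KO CD8 cells, and nothing particular to a role is read from them. Oas1a makes a second messenger that activates RNase L. It was detected in 21.1% of WT (13.2% to 31%) and 8.14% of KO CD8 cells (3.34% to 16.1%), with means of 1.64 and 0.64 (log2). The Ifit genes, whose proteins bind foreign RNA ends, were too rare to count as measured. Ifit1 was found in 15.6% and 11.6% of WT and KO CD8 cells at means of 54.4 and 73.7 FPKM, and Ifit3 in 18.9% and 15.1% at means of 104.2 and 95.2 FPKM. Their differences of -0.25 and -0.22 turned to 0.06 and 0.15 among cells with at least 2000 genes. Mx1, which encodes a GTPase against influenza viruses that is inactive in most laboratory strains, was found in 11.1% and 9.3%, a difference of 0.06.

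All 3 RNA sensors of the RIG-I family, 2 of them measured, had lower means in KO CD8 cells, beside 78.7% of all measured genes. Ddx58, which encodes RIG-I itself, was detected in 38.9% of WT (28.8% to 49.7%) and 20.9% of KO CD8 cells (12.9% to 31%), with means of 2.15 and 1.15 (log2). Its level where found was 43.7 and 38.6 FPKM at the median. Among cells with at least 2000 genes the Ddx58 difference was -0.51. Ifih1, which encodes the sensor MDA5, differed by -0.52, and Dhx58, a regulator of both sensors that was not among the measured genes, by -0.58. Parp9, Dtx3l and Parp14, which encode a partnered ADP-ribosylation and ubiquitin ligase system and its relative, differed by -0.88, -1.09 and -0.42. Cells with both Parp9 and Dtx3l were 19 of 90 in WT and 7 of 86 in KO CD8 cells.

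The 4 members of the ISG15 system and the ubiquitin ligases, 2 of them measured, all had lower means in KO CD8 cells, none by 1 or more. This stands beside 78.7% of all measured genes with lower means. Isg15 was detected in 16.7% of WT (9.64% to 26%) and 6.98% of KO CD8 cells (2.6% to 14.6%), intervals that overlap, a difference of -0.50. Usp18, the protease that removes ISG15, was found in 17.8% and 17.4%, a difference of -0.19. Herc6, the mouse ligase for ISG15, differed by -0.44 and the ubiquitin ligase gene Trim30a by -0.10. Trim30a reached 0.46 with equal weights of detected genes.

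Epsti1 and Ifi27l2a were the measured genes with a higher mean in KO CD8 cells. Epsti1 was detected in 62.2% of WT (51.4% to 72.2%) and 69.8% of KO CD8 cells (58.9% to 79.2%), with medians over all cells of 120.8 and 239.1 FPKM. Its difference of 0.80 stayed above 0 in all 15 alternatives, from 0.39 to 1.38. Ifi27l2a, which encodes a small membrane protein of mitochondria and the nuclear envelope, was found in 35.6% and 33.7% of cells, at a highest value of 4275 and 5957 FPKM. Its difference of 0.03 changed sign in 5 of 15 alternatives. Among the remaining measured members, Ifi35 differed by -0.69, Xaf1 by -0.53 and Rtp4 by -0.41. The oligoadenylate synthetase genes Oas2 and Oasl2 were too rare to be measured, at 2.25% to 9.41% and 4.65% to 7.06% of cells over the 4 groups.

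**Figure D2:**
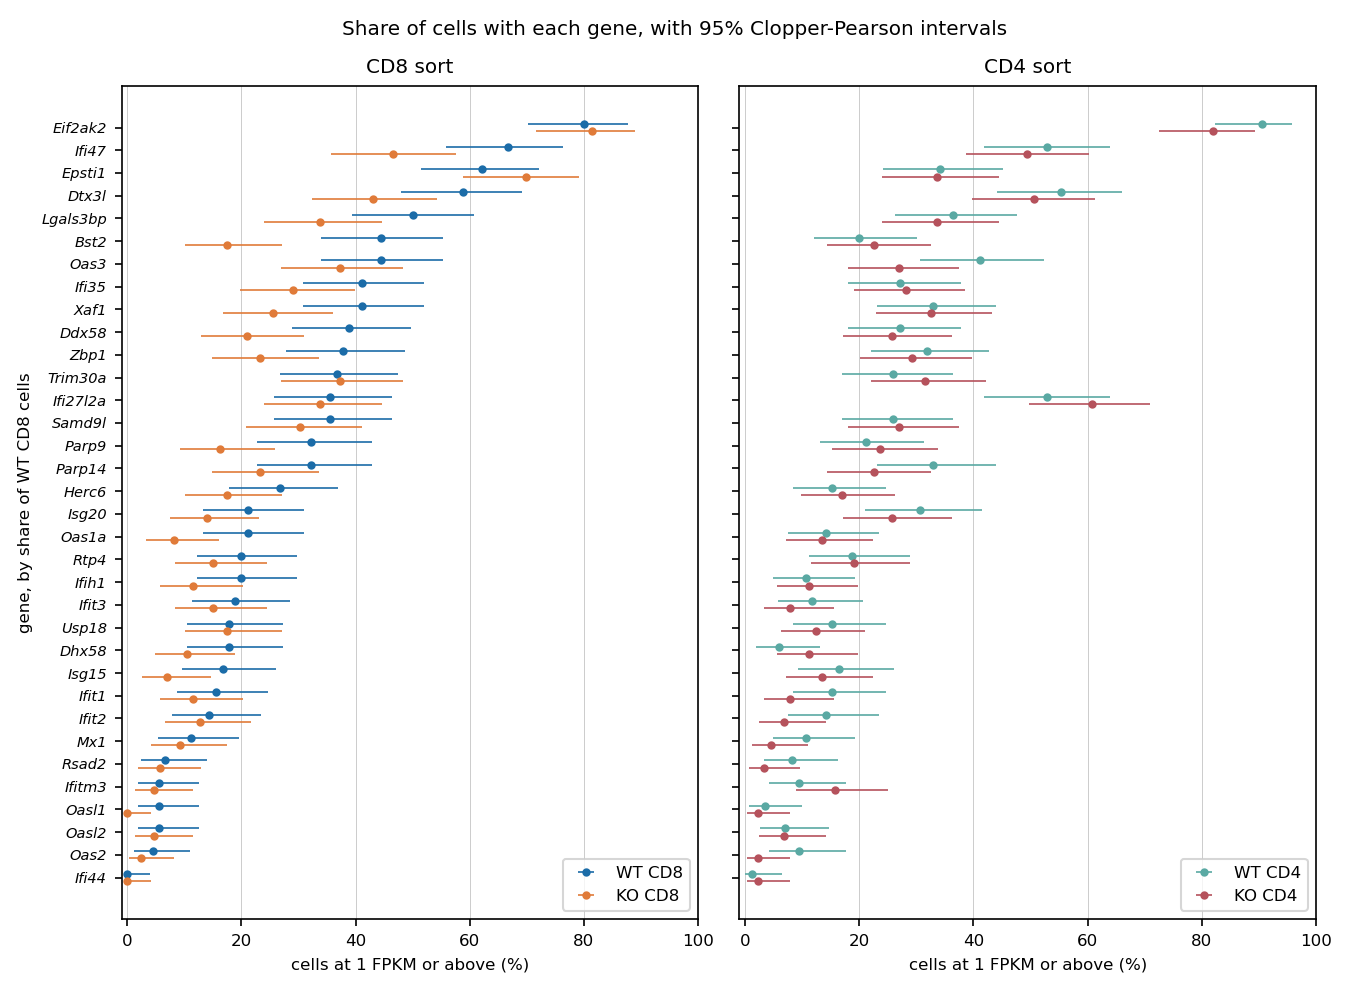
Share of cells (horizontal axis, %) at 1 FPKM or above for each of the 34 genes, in the CD8 sort (left) and the CD4 sort (right), with points for WT and KO cells and bars for exact 95% intervals that cover counting error only. In the CD8 sort the KO points lie mostly to the left of the WT points, with Bst2 at 17.4% against 44.4%, and in the CD4 sort the points lie close together.

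The number of the 34 genes found in a cell shows where in the population the CD8 difference lay. WT CD8 cells had 1 to 28 of the genes with a median of 9, and KO CD8 cells 2 to 29 with a median of 6. The 25th percentile was 6 in WT and 5 in KO cells, the 75th was 12 and 8, and the 90th was 18 and 13.5. The highest cells reached similar numbers in both groups, and the lowest differed by 1 gene. The difference was -1 at the 10th percentile, -3 at the median, -4.50 at the 90th and -3.80 at the 95th. At least 10 genes were found in 46.7% of WT (36.1% to 57.5%) and 19.8% of KO CD8 cells (12% to 29.8%). At least 20 were found in 5 of 90 and 3 of 86 cells. The cutoffs of 10, 15 and 20 genes were chosen after the values were seen.

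**Figure D3:**
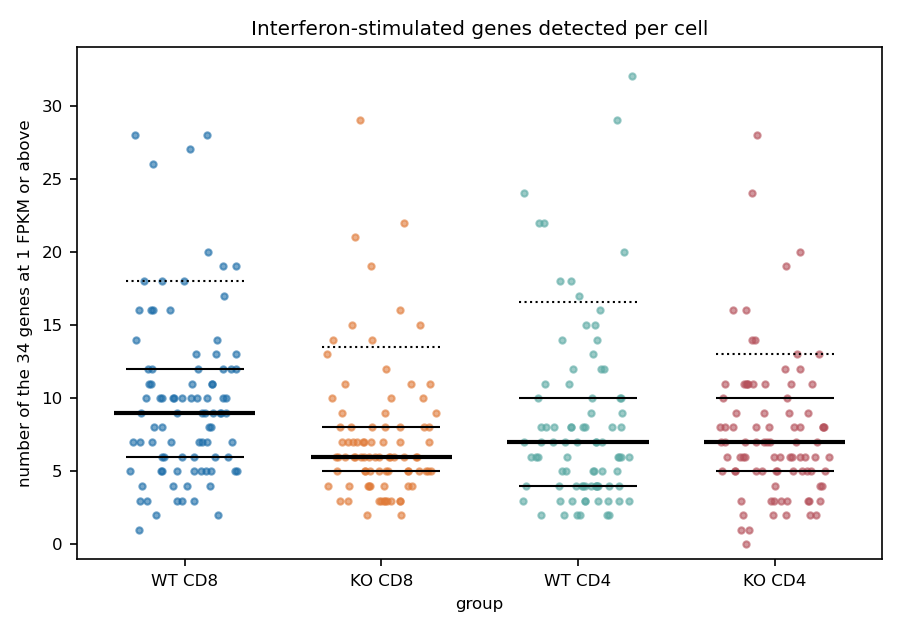
Number of the 34 genes at 1 FPKM or above in each cell (points) of the 4 groups, with the median as a thick line, the quartiles as thin lines and the 90th percentile as a dotted line. The WT CD8 median of 9 lies above the other medians of 6, 7 and 7, and every group has a few cells above 20.

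Leaving out the top 10% of cells in each group hardly moved the CD8 difference. The mean number of genes per cell was 9.87 ± 5.77 (SD over 90 cells) in WT and 7.36 ± 4.67 (SD over 86 cells) in KO CD8 cells, a difference of -2.51. Without the top 9 cells of each group it was 8.46 and 6.08, a difference of -2.38. The number of these genes in a cell went with the number of all genes detected (Spearman 0.35 in KO and 0.46 in WT CD8 cells, over 86 and 90 cells, where both numbers depend on the depth of the cell). With equal weights of detected genes, the 25th, 50th and 75th percentiles were 5, 9 and 12 in WT and 5, 6 and 10 in KO CD8 cells, and the mean was 9.40 and 7.78. Under that weighting the 25th percentiles were therefore equal, and the difference was present at the median and the 75th percentile. Among cells with 1500 to 2500 genes the medians were 8 over 58 WT cells and 6 over 71 KO cells. At 10 FPKM in place of 1 FPKM the medians were 7 and 4.

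For the members as for all genes of the table, the CD8 difference lay mostly in how many cells had a gene. The difference of means was split into a part from the share of cells and a part from the level where found. Over the 21 measured genes the median share part was -0.55 and the median level part -0.03, beside -0.38 and 0.01 over all measured genes. The share part was the larger downward part in 17 of the 19 genes with a lower mean (89.5%), against 87.1% of all measured genes with a lower mean. Within each gene, the top 9 cells held a median of 65.7% of the summed FPKM in WT and 81% in KO CD8 cells, against 61.3% and 73.2% over all measured genes. Dtx3l was an exception in part, with -0.71 from the share and -0.44 from the level, and its median where found was 33.6 FPKM in WT and 15.7 FPKM in KO CD8 cells.

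**Figure D4:**
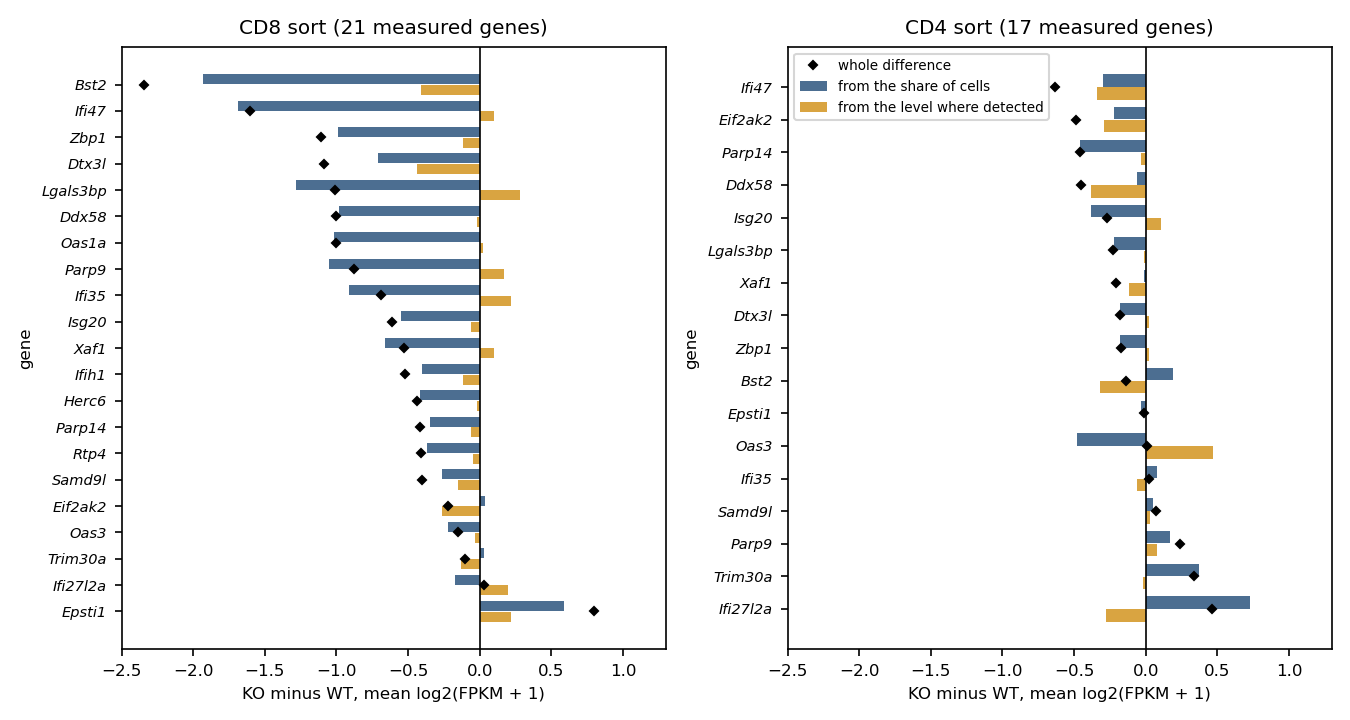
Split of each KO minus WT difference of mean log2(FPKM + 1) into the part from the share of cells with the gene (blue bars) and the part from the level where found (yellow bars), with the whole difference as a diamond, for 21 genes of the CD8 sort and 17 of the CD4 sort. In the CD8 sort the blue bars exceed the yellow ones for most genes with a lower mean, and run from -1.93 for Bst2 to 0.59 for Epsti1. In the CD4 sort the medians of both parts are near 0 (-0.06 and -0.02). The 2 parts there can be opposed, as for Ifi27l2a (0.73 and -0.28) and Oas3 (-0.48 and 0.47).

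In the CD4 sort no measured member differed by 1 or more over all kept cells. The number of these genes per cell differed mainly among the cells with most of them. Of 17 measured genes, 11 had a lower mean in KO cells (64.7%, against 33.9% of all 3864 measured genes). The counts of 0 lower and 0 higher by at least 1 stand beside backgrounds of 0.983% lower and 9.91% higher. The median difference was -0.17 over the 17 genes and 0.23 over all measured genes, and 14 of the 17 lay below the latter. With equal weights of detected genes these medians were -0.40 and 0.00. Without the 5 cells with most members in each group they were -0.22 and 0.22, and without the top 10% of values -0.11 and 0.27. The distance of the members from all genes was therefore not confined to the top cells. Among cells with at least 2000 genes, 25 in WT and 37 in KO, 19 of 26 measured members had lower means, beside 57% of all genes. The median difference there was -0.65 over the members and -0.13 over all genes. Of the 26, 6 were lower by at least 1, beside 10.4% of all genes. These were Ifi47 (-3.22), Zbp1 (-2.17), Ifit2 (-1.51), Bst2 (-1.40), Eif2ak2 (-1.27) and Ifit1 (-1.20). Ifit1 and Ifit2 were found in only 7 and 6 of all 89 KO CD4 cells. That is too few to pass the filter among the 37 KO cells of this subset. Both therefore counted as measured there through WT cells alone, which sets a lower share in KO. Over all kept cells the lowest differences were those of Ifi47 (-0.63), Eif2ak2 (-0.49), Parp14 (-0.46) and Ddx58 (-0.45). The highest were those of Ifi27l2a (0.46) and Trim30a (0.34).

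Ifi47 ranged from 0 to 5119 FPKM in WT CD4 and from 0 to 1502 FPKM in KO CD4 cells, and was found in 52.9% and 49.4% of them. Its level where found was 621.6 and 338.7 FPKM at the median, so here the share part (-0.30) and the level part (-0.34) were alike. Ddx58 was found in 27.1% and 25.8% of WT and KO CD4 cells at medians of 57 and 12.1 FPKM where found. Parp14 had shares of 32.9% in WT and 22.5% in KO, and Eif2ak2 of 90.6% and 82%. Lgals3bp differed by -0.23, with 36.5% and 33.7%. Isg20, an exonuclease of single-stranded RNA, was found in 30.6% and 25.8%, a difference of -0.27. Ifi27l2a was present in 52.9% of WT CD4 and 60.7% of KO CD4 cells, at means of 726 and 839 FPKM. Isg15 was found in 16.5% and 13.5%, and Bst2 had means of 113.3 and 37.8 FPKM with highest values of 1812 and 440.8 FPKM.

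Of the 17 members not measured in the CD4 sort, 11 had a lower and 6 a higher share in KO cells. No such count was made over all genes that failed the filter, so nothing particular to the members is read from it. Ifit1 was detected in 15.3% of WT (8.4% to 24.7%) and 7.87% of KO CD4 cells (3.22% to 15.5%). Ifit2 was found in 14.1% and 6.74%, Mx1 in 10.6% and 4.49%, and Rsad2 in 8.24% and 3.37%. Intervals overlapped for each of them. Ifitm3, which encodes a membrane protein that blocks virus entry, had shares of 9.41% and 15.7%, and Dhx58 of 5.88% and 11.2%. Ifi44, Herc6, Rtp4 and Ifih1 were the other members with a higher share in KO.

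The number of these genes per CD4 cell had the same median of 7 in both groups. The 25th percentile was 4 in WT and 5 in KO cells, and the 75th was 10 in both. The 90th percentile was 16.6 and 13, the 95th 21.6 and 16, and the highest cell had 32 and 28. At least 15 genes were found in 12 of 85 WT (14.1%, 7.51% to 23.4%) and 6 of 89 KO CD4 cells (6.74%, 2.51% to 14.1%), intervals that overlap. The mean number was 8.26 ± 6.14 (SD over 85 cells) and 7.63 ± 4.81 (SD over 89 cells), a difference of -0.63. Without the top 9 cells of each group it was 6.58 and 6.44, a difference of -0.14. With equal weights of detected genes the medians were 7 and 6 and the 90th percentiles 17 and 12.

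**Figure D5:**
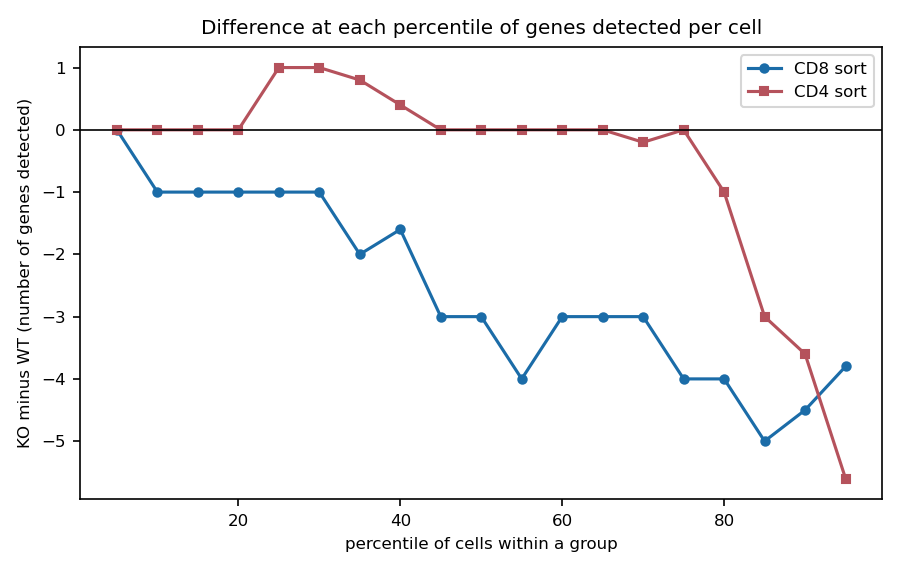
KO minus WT difference in the number of the 34 genes found per cell (vertical axis) at each 5th percentile of cells within a group (horizontal axis), for the CD8 sort (circles) and the CD4 sort (squares). The CD8 line lies at -1 by the 10th percentile and at -3 at the median, while the CD4 line stays between -0.20 and 1 up to the 75th percentile and then drops to -5.60 at the 95th.

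Each group held a few cells with most of the genes. In the highest WT CD8 cells 28, 28, 27 and 26 of the 34 genes were found, and the next had 20. The highest KO CD8 cell had 29, the highest WT CD4 cells 32 and 29, and the highest KO CD4 cell 28. The WT CD4 cell with 32 genes had 1926 genes detected in all, 2 of Cd3d, Cd3e and Cd3g at 10 FPKM or above, and none of the macrophage, B cell, NK, neutrophil, melanoma or stromal markers at that level, but 1 marker from the list for plasmacytoid dendritic cells, which includes Bst2. Next after the second, a WT CD4 cell with 24 genes had 5 macrophage markers and none of the 3 Cd3 genes at that level. One of the WT CD8 cells with 28 genes had 3 B cell markers. Foxp3, the regulatory T cell factor, was found in 3 of the 5 highest WT CD4 cells and 1 of the 5 highest KO CD4 cells.

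The Ifit genes are neighbours on chromosome 19, and cells with several of them had more of the other members. At least 2 of Ifit1, Ifit2 and Ifit3 were detected in 10 CD8 cells from WT, 9 CD8 cells from KO, 8 CD4 cells from WT and 3 CD4 cells from KO. In these cells the median number of the other 31 genes was 16, 14, 18 and 22, in the same order. In cells with none of the 3 it was 7.5, 6, 5 and 6. Cells with at least 2 of the 3 also had more genes detected in all, with medians of 2246, 2202, 1762 and 2210 against 2099, 1928, 1661 and 1974 in cells with none, and the part of depth in this was not tested. Of Oas1a, Oasl1 and Oasl2, all 3 were found together in 2 WT CD8 and 2 WT CD4 cells and in no KO cell. Oasl1 was found in 0 KO CD8 and 2 KO CD4 cells, so there was little room for all 3 in a KO cell. Single genes followed the rest to different degrees. The Spearman correlation of Isg15 with the number of the other 33 genes was 0.34 to 0.54 across the 4 groups, that of Eif2ak2 0.01 to 0.12, and that of Epsti1 0.10 to 0.36. All points of a group come from 1 pool, and each cell's values share its depth.

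Within the sorts, cells with Foxp3 or with several checkpoint receptor transcripts had higher median numbers of these genes, and more genes detected. In the CD4 sort, cells with Foxp3 had a median of 8 of the genes in 46 WT cells and 7 in 35 KO cells, and cells without Foxp3 had 5 in 39 and 6 in 54. The median of all genes detected was 1884 and 2152 with Foxp3 and 1547 and 1746 without, in WT and KO. Among cells without Foxp3 the median KO minus WT difference was 0.17 over 15 measured members and 0.21 over all genes, and among cells with Foxp3 it was -0.40 over 18 and 0.42 over all genes. Ifi47 differed by -1.94 with Foxp3 and 0.62 without. The difference between these subsets was not tested. In the CD8 sort, cells with 2 or more of the transcripts Pdcd1, Havcr2, Lag3 and Tigit had medians of 10 in 39 WT and 7 in 23 KO cells, and the remaining cells 7 in 51 and 6 in 63. The median of all genes detected was 3024 against 1993 in WT and 1984 against 1950 in KO. Without such cells the CD8 median difference was -0.50 over 20 members and -0.01 over all genes.

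Between the sorts, Epsti1 was lower and Ifi27l2a higher in CD4 cells of both genotypes. Sort and the mark p1 or p2 in the titles cannot be told apart here. The CD4 minus CD8 difference of Epsti1 was -2.38 (log2) in WT and -3.19 in KO cells. Ifi27l2a was higher in CD4 cells by 1.98 and 2.40. Bst2 was lower in CD4 cells in WT (-1.80). In WT, 2 of 21 measured members were lower in CD4 cells by at least 1, beside a background of 23.4%, and 1 was higher, beside 1.54%. In KO cells 1 of 17 was lower, beside 4.55%, and 2 were higher, beside 8.24%, of which the other was Isg20 (1.05). The median CD4 minus CD8 difference in WT was -0.52 over the members and -0.53 over all measured genes.

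Most signalling genes of the pathway also had lower means in KO cells, and the interferon and IL-27 receptor genes measured in CD8 cells had higher ones. Of 11 interferon signalling genes reported, all measured in CD8 cells, 10 had lower means, beside 78.7% of all measured genes, and 1 was lower by at least 1, beside 13.3%. Their median was -0.51 beside -0.40 over all measured genes. Irf8, a factor of the interferon regulatory family, was that gene, found in 26.7% of WT and 4.65% of KO CD8 cells (-1.82). The kinase gene Tyk2 differed by -0.74 and Irf1, a factor induced by interferon, by -0.52. Irf7, which amplifies the type I response, differed by -0.77 and Irf9 by -0.59. Irf8, Irf9, Stat2 and Jak2 reached 20% of CD8 cells in WT alone, so their lower share in KO followed from the filter. In CD4 cells, 7 of 10 measured signalling genes had lower means, beside 33.9% of all measured genes, with a median of -0.30 beside 0.23 over all measured genes. Socs3, an inhibitor of cytokine signalling, was lower by at least 1 there: it had shares of 63.5% in WT and 29.2% in KO cells and a difference of -3.07. Irf7 differed by -0.72 and Irf1 by -0.70, and Jak1 by 0.75. Stat2 and Irf9 passed the filter in CD4 cells through WT alone, which sets a lower share in KO.

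All 5 measured interferon and IL-27 receptor genes had a higher mean in KO CD8 cells, beside 999 of all 4686 measured genes. The 5 were Ifngr1 (0.78), Ifngr2 (0.73), Ifnar1 (0.28), Ifnar2 (0.23) and Il27ra (0.25), the gene labelled as knocked out. Ifngr2 was among them and passed the filter through KO alone (15.6% of WT and 23.3% of KO cells). In CD4 cells 3 of 6 were higher, beside 2554 of all 3864 measured genes. The lower ones were Il27ra (-0.35), Ifngr2 (-0.27) and Il6st (-0.62), and Il6st passed through WT alone. Of the RNA sensing adaptors, 3 of 5 measured genes were lower in CD8 cells, beside 78.7% of all measured genes. Trim25, which was lower, passed through WT alone (21.1% of WT and 15.1% of KO cells). In CD4 cells 2 of 4 were lower, beside 33.9%, and no adaptor differed by 1 or more in either sort. Myd88, which was higher in KO CD4 cells, passed through KO alone (17.6% of WT and 22.5% of KO cells). Among the ligands, Ifnb1, Ifna2, Ifna4, Ifna5, Ifne and Il27 were detected in none of the 350 cells. A count of 0 allows up to 3.53% of cells in the smallest group. Ifng, the ligand that T cells make, had shares of 23.3% in WT and 10.5% in KO among CD8 cells, and of 3.53% and 5.62% among CD4 cells. In CD8 cells it passed the filter through WT alone, and the intervals overlap (15.1% to 33.4% and 4.9% to 18.9%).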

How the data were processed

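The deposited values are gene-level FPKM of single cells sequenced by Smart-seq2. According to the submitters' processing notes, the authors used Bowtie, RSEM and the mm10 build, and the deposited table is labelled as TMM-normalized. Tool versions are not given in the sources used here. The table has 375 columns, of which 4 match no sample and were not used. Rows with a repeated symbol (4) were left out. Read counts were not used, so depth is seen only as the number of genes detected. No cells had identical values, and no doublet caller was run.

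Differences are KO minus WT means of log2(FPKM + 1), a scale that understates differences of low genes. Members are set beside all genes that passed the same filter, and with 1 pool a group no test was made. Intervals are exact Clopper-Pearson 95% intervals, and a share of 0 carries the limit that 3 counts allow. Each difference was split with the midpoint of both groups as weight. Equal weights used bins starting at 1000, 1500, 2000, 2500 and 3000 detected genes. Scripts ran in Python 3.11.15 with pandas 2.3.3 and scipy 1.17.1 and were tested on simulated data. Gene positions are from GENCODE M21 on mm10.

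The members and lists were chosen with earlier results of these data known. Shares or differences are given gene by gene for measured members among the 6 lowest or 2 highest differences of a sort. They are also given for Isg15, Ifit1, Ifit3, Mx1, Bst2, Ifi27l2a, Irf7 and Il27ra. 1 other gene is not reported here. Other members are given by range within their role. Alternatives changed the filters, detection threshold, pseudocount, scaling, weighting and choice of cells.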

Additional observations from a re-analysis of the deposited data

How the results depend on the processing

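Over 15 alternatives in the CD8 sort, the median difference over the members kept its sign under every one. The CD8 median over all genes did so too, from -0.63 to -0.01. Over 16 alternatives in the CD4 sort, the median over the members kept its sign under all but 1, the exclusion of cells with Foxp3. That exclusion gave a CD4 median of 0.17 with 6 of 15 measured members lower, beside 37% of all genes. Dtx3l was then 0.40, Epsti1 0.94, Ifi47 0.62, Isg15 0.01, Isg20 0.65 and Zbp1 0.61. With Foxp3 cells alone, CD4 differences of Bst2 and Ifit3 were 0.42 and 0.16. Among cells with at least 2000 genes, the CD4 median was -0.65 with 19 of 26 measured members lower, beside -0.13 and 57% over all genes. CD8 differences among such cells were 0.06 for Ifit1, 0.15 for Ifit3, -0.36 for Mx1 and 0.03 for Trim30a. Among cells with 1500 to 2500 genes, CD4 differences were 0.00 for Bst2, 0.76 for Epsti1, -0.61 for Ifi27l2a, 0.16 for Ifit3 and 0.41 for Zbp1. Equal weights of detected genes gave -0.25 for Ifi27l2a in CD4 and 0.46 for Trim30a in CD8. Without the gene filter, 30 of 33 members were lower in CD8, beside 70.5% of all genes, and 24 of 34 in CD4, beside 45.8%. A filter of 10% left 20 of 29 lower in CD4, beside 37%. The counts rose because more genes entered. The CD8 median was -0.85 at a pseudocount of 0.1 and -0.25 at 10, beside -0.63 and -0.19 over all genes. At 0.1, Ifi27l2a was -0.03 and Mx1 -0.10 in CD8, and Epsti1 0.03 in CD4. At 10, Epsti1 was 0.01 in CD4, and without the filter on cells 0.04. Without cells with 2 or more checkpoint receptors, CD8 differences were -0.45 for Ifi27l2a, -0.29 for Mx1, 0.12 for Parp14 and 0.11 for Trim30a, and Zbp1 was -0.23. Without cells with other markers, Ifi27l2a was -0.42 in CD8, and Dtx3l and Epsti1 were 0.00 in CD4. The CD4 median was then -0.01, beside 0.32 over all genes, and 64.7% of measured members were lower, beside 29% of all genes. Without the top 10% of values, Ifi27l2a was -0.12 and Mx1 -0.06 in CD8, and Bst2 0.07 in CD4. Without the 5 cells with most members, an alternative chosen after seeing the data, Ifi27l2a was -0.19 in CD8. Apart from the exclusions and filters named, the cause was not tested. No paired analysis was possible because each group is 1 pool. Read depth is not known, so a gene not detected may be present below what a library could show.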
